A study of Mus musculus with 12 samples.

Results

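The 48 genes described here are genes of cell division and DNA replication, chosen by symbol. They comprise 15 genes of S phase, which license origins, copy DNA or make its building blocks, and 33 genes of mitosis. All 48 are among the 35976 genes of the count files, and all 48 passed the filter on low counts that left 18853 genes for testing.

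The series is bulk RNA-seq of mouse scars from 4 groups of 3 male mice. They were 8 to 12 weeks old, and each received a 1.5-cm wound of the back skin, on which a plastic device was placed on day 6. In the traction groups the device added 1 mm of stretch daily, 8 mm in all, whereas sham devices were left unstretched. The groups were Tem1WT/WT mice with sham, Tem1WT/WT mice with traction, Tem1lacZ/lacZ mice with sham and Tem1lacZ/lacZ mice with traction. Tem1, listed as Cd248, encodes a membrane protein of stromal cells. Tem1lacZ/lacZ mice lack it in every cell type, since bacterial lacZ was put in place of its coding exon, and carry the reporter that Tem1WT/WT mice do not. The line was backcrossed to C57BL/6J. Every group, sham included, had a healing wound and carried the device. The comparisons ask whether stretching altered the division genes of the scar, and whether this depended on Tem1.

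A dividing cell first licenses its origins with the Mcm helicase, then copies its DNA in S phase, and afterwards builds a spindle that separates the chromosomes in mitosis. The genes of both phases are switched on in turn: E2F factors drive much of the S-phase set, whereas the mitotic set is held down by the DREAM complex in resting cells and driven by B-Myb and FoxM1 in dividing ones. In skin, the matrix of growing hair follicles, the basal epidermis and wound tissue hold many dividing cells. In bulk RNA, fewer dividing cells and less RNA per dividing cell cannot be told apart.

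The promoters of the classes carry different short motifs, and a few are shown as background. The part of these motifs in the levels was not tested. The windows are those of RefSeq on GRCm38.p6, from 250 bases before to 50 bases after the start of transcription, and 41 of the 48 members have one. The letters TTTGAA, the cell cycle homology region bound by DREAM, B-Myb and FoxM1 complexes, were found on either strand in 21 of 28 mitotic members with a window and in 1 of 13 S-phase members, against 18.1% of 27025 genes. An E2F motif, spelled TTTCCCGC, TTTCGCGC, TTTGCCGC or TTTGGCGC on either strand, was found in 6 of 13 S-phase and 1 of 28 mitotic members, against 2.32% of all genes. CCAAT, the site of NF-Y, was found in 8 of 13 S-phase and 21 of 28 mitotic members, against 37.9%. A window counts once per motif, however many matches it holds or however they overlap. A match is a description of the letters only. Stretches of 80 bases before the start are printed 5′ to 3′ on the strand of the gene, with TTTGAA or its reverse complement in capitals in the first 4 and the E2F motif in capitals in the other 3. In Mcm5 the capitals are matches on both strands that overlap. Mki67 encodes the proliferation marker Ki-67, Top2a the topoisomerase that untangles chromosomes, Cdc20 an activator of the anaphase-promoting complex, and Cdk1 the kinase that starts mitosis. Mcm5 and Mcm6 encode subunits of the helicase and Cdc6 a factor that loads it.
Mki67 (chr7:135716418-135716497, minus strand): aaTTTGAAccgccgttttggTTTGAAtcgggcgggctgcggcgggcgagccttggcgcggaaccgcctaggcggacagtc
Top2a (chr11:99024190-99024269, minus strand): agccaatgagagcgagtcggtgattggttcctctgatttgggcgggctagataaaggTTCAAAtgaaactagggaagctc
Cdc20 (chr4:118437344-118437423, minus strand): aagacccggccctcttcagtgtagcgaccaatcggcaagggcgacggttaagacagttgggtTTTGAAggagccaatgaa
Cdk1 (chr10:69352913-69352992, minus strand): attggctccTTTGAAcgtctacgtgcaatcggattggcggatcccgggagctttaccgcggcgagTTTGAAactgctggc
Mcm5 (chr8:75109340-75109419, plus strand): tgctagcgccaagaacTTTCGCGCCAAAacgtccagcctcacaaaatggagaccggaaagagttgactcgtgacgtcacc
Mcm6 (chr1:128359706-128359785, minus strand): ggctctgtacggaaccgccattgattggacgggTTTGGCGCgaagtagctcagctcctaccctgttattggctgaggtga
Cdc6 (chr11:98907993-98908072, plus strand): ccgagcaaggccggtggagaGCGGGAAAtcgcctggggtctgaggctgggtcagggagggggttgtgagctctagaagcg

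Library totals ranged from 41536788 to 64644293 counts, and each member had at least 131 counts in every library. Cd248 was at 92.4 to 337 CPM (counts scaled to library size) in the 6 Tem1WT/WT libraries and at 0 to 0.248 CPM in the 6 Tem1lacZ/lacZ libraries, as the labels state. The 10 fibroblast markers summed to between 23418 and 121840 CPM, and none of them was at 0 in all libraries. Library 1 of the Tem1WT/WT traction group stood apart in its neutrophil markers, whose sum was 7446 CPM against 70.5 to 629 CPM in the other 11 libraries. Libraries 1 and 3 of the same group stood apart in their A-rich transcripts, described further on. All CPM values below are scaled with edgeR's TMM factors.

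Per kilobase of transcript, the highest members were Pcna, the sliding clamp of DNA polymerase, at 77.7 CPM per kilobase, Rrm1, the large subunit of ribonucleotide reductase, at 36.9, Top2a at 36.0 and Mki67 at 26.1 (means of 12 libraries). The lowest were the transcription factors Mybl2 (B-Myb) at 2.27 and Foxm1 at 2.81, and Ccne2, a cyclin of the G1 to S transition, at 2.69 CPM per kilobase.

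Except for the S-phase members in Tem1WT/WT traction scars, the level of the division genes differed more between mice of 1 group than between the group means. The mean log2 CPM of the 15 S-phase members was 4.92 ± 0.34 (SD, n = 3) in Tem1WT/WT sham scars, 5.02 ± 0.05 with traction, 4.92 ± 0.43 in Tem1lacZ/lacZ sham scars and 4.96 ± 0.30 with traction. The mean log2 CPM of the 33 mitotic members was 4.65 ± 0.54, 4.50 ± 0.17, 4.61 ± 0.66 and 4.71 ± 0.46 in the same order. All group means thus lay within the range of the mice in both sham groups and in the Tem1lacZ/lacZ traction group. The Tem1WT/WT traction mice lay closer together, at 4.96 to 5.05 (S phase) and 4.32 to 4.64 (mitosis). Some means of other groups fell outside these ranges. The libraries of every group overlapped those of every other group in both classes.

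**Figure D1:**
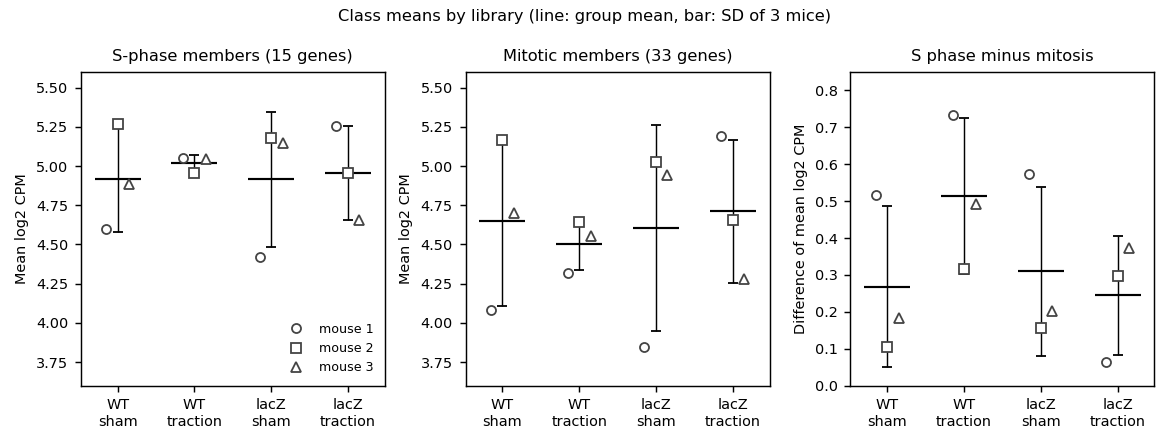
Mean log2 CPM of the 15 S-phase members (left) and the 33 mitotic members (middle) and their difference (right) in each library. Symbols are mice, lines are group means and bars the SD of 3 mice. The group means of the mitotic class lie between 4.50 and 4.71, whereas single libraries run from 3.85 to 5.19.

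The mice were ordered the same way by nearly all members. In Tem1WT/WT sham scars, mouse 1 had the lowest CPM for 32 of 33 mitotic and 14 of 15 S-phase members, and mouse 2 had the highest for 32 of 33 and 14 of 15. In Tem1lacZ/lacZ sham scars, mouse 1 was lowest for 33 of 33 mitotic and 15 of 15 S-phase members. In Tem1lacZ/lacZ scars with traction, mouse 3 was lowest for 33 of 33 mitotic and 12 of 15 S-phase members and mouse 1 highest for 29 of 33 and 12 of 15. Tem1WT/WT scars with traction had no such order, since the mouse most often lowest was mouse 1 for 19 of 33 mitotic members and mouse 2 for 8 of 15 S-phase members.

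For the mitotic members, the highest library of a group exceeded the lowest by a median ratio of 2.17 in Tem1WT/WT sham, 2.35 in Tem1lacZ/lacZ sham, 2.02 in Tem1lacZ/lacZ traction and 1.43 in Tem1WT/WT traction scars. The highest group mean exceeded the lowest by a median ratio of 1.31. Over the 17849 tested genes above 0 in every library, the corresponding median ratios were 1.35, 1.39, 1.51 and 1.58 within groups and 1.62 between group means. For the S-phase members they were 1.58, 1.78, 1.64 and 1.30 within groups and 1.28 between them. The widest within-group ratio was larger than the ratio of group means for 33 of 33 mitotic members, 14 of 15 S-phase members and 73.6% of all those genes. These ratios are descriptions with no test.

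**Figure D2:**
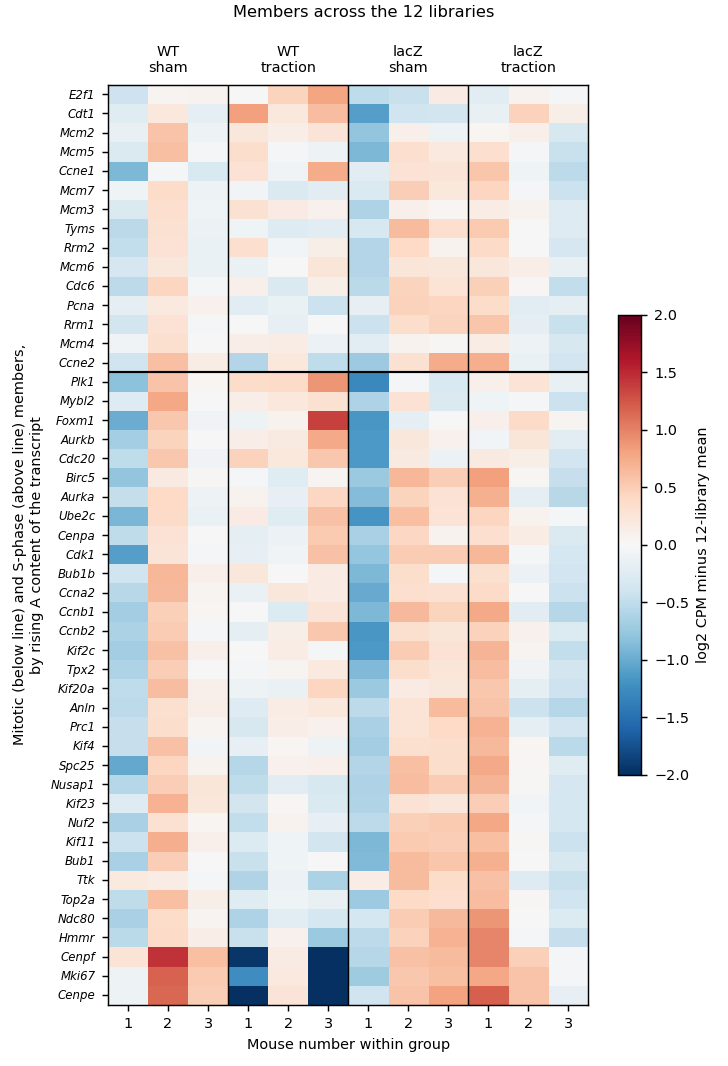
Log2 CPM of each member minus its mean over the 12 libraries, with S-phase members above the line and mitotic members under it, each class ordered by the A content of the transcript. Colours stop at 2 in either direction. Mouse 1 of the lacZ sham group has the lowest value of its group for 33 of 33 mitotic members, and the 3 bottom rows are low in mice 1 and 3 of the WT traction group.

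A list of hair follicle markers was read beside these levels. It joins keratins and Tchh of the hair shaft and inner root sheath with regulators of the hair matrix, the dividing layer at the follicle base. Tchh and Krt71 had mean log2 CPM of 11.98 and 11.69, and Dlx3, the highest matrix regulator, had 5.62. The sums are therefore mainly those of shaft and sheath genes and do not measure the dividing matrix. The 12 markers found in the files (none at 0 in all libraries) summed to 15573, 28829 and 15661 CPM in mice 1, 2 and 3 of the Tem1WT/WT sham group, where mouse 2 also had the highest division genes. Mice 1 and 3 of that group had close sums but mitotic means of 4.08 and 4.70 log2 CPM. The markers summed to 4009, 21677 and 12302 CPM in the Tem1lacZ/lacZ sham group, where mouse 1 had the lowest division genes. Mice 2 and 3 there had mitotic means of 5.025 and 4.946 log2 CPM. The markers summed to 13976, 11436 and 8035 CPM in the Tem1lacZ/lacZ traction group, where mouse 3 had the lowest mitotic members. In the Tem1WT/WT traction group they summed to 4196, 7693 and 4231 CPM, and all 3 values lay under those of the Tem1WT/WT sham group. Basal keratinocyte markers (9 of 9 in the files) summed to 9400, 8292 and 14159 CPM in mice 1, 2 and 3 of the Tem1WT/WT sham group. In the same order they summed to 26767, 11643 and 17864 CPM in the Tem1WT/WT traction group. The sums were 16277, 19598 and 21577 CPM in the Tem1lacZ/lacZ sham group and 43978, 9290 and 10501 CPM in the Tem1lacZ/lacZ traction group. The members of this list did not move together. With traction in Tem1WT/WT mice 6 had a higher and 3 a lower level. The wound-edge keratins Krt16 and Krt6a had log2 fold changes of 1.92 and 1.72, and Krt5 had 0.14. Trp63 had -0.66 and Krt15 -2.64 (edgeR adjusted p = 0.033 for Krt15). The part of hair follicle and basal cells in the levels of the division genes was not tested.

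With traction in Tem1WT/WT mice, 0 of 48 members passed the test of edgeR at an adjusted p under 0.05, whereas 9.15% of all genes tested did. At an unadjusted p under 0.05 there were 5 of 48 members, against 31.4% of all genes, and the libraries did not overlap for 3 of 48, against 35.7%. DESeq2 called 1 member, Cenpf, against 21.5% of all genes, and limma-voom 0, against 3.97%. The median log2 fold change was -0.02 over the S-phase members and -0.04 over the mitotic members, beside -0.01 over all genes tested. For 11 of 15 S-phase and 14 of 33 mitotic members the 95% interval lay wholly within a 2-fold difference (log2 of 1 in either direction), so a larger difference remained possible for the others. The count over all genes, 1725 of 18853, depended on the libraries in the fit. It was 0 without mouse 1 or mouse 2 of the Tem1WT/WT sham group and in the fit to the 6 libraries compared alone, 169 without mouse 3 of the Tem1lacZ/lacZ sham group, 820 without mouse 3 of the Tem1WT/WT sham group, and 360, 2861 and 704 without mouse 1, 2 or 3 of the Tem1WT/WT traction group.

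Of the helicase and licensing genes, Cdt1 had the largest difference. Mcm2, Mcm3, Mcm4, Mcm5, Mcm6 and Mcm7, which form the replicative helicase, had log2 fold changes between -0.25 (Mcm7) and 0.17 (Mcm3), with 0.06 for Mcm2 and -0.05 for Mcm5. Mcm5, for example, was at 50.9, 94.9 and 60.8 CPM in sham mice 1, 2 and 3 and at 79.97, 61.6 and 58.6 CPM in mice with traction. The traction values lie inside the sham range. Cdc6 was at 6.30, 12.1 and 8.76 CPM with sham and at 9.71, 7.40 and 9.76 CPM with traction, a log2 fold change of -0.02.

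Cdt1, which with Cdc6 loads the helicase, had the only S-phase libraries that did not overlap in Tem1WT/WT mice. It was at 5.73, 7.81 and 5.95 CPM with sham and at 12.015, 7.84 and 10.4 CPM with traction. All 3 traction values were the higher ones, mouse 2 only just. The log2 fold change was 0.63 (95% interval 0.05 to 1.22, edgeR adjusted p = 0.13). Over the 25 alternatives it ran from 0.27 to 0.81, and its lowest adjusted p was 0.076.

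The nucleotide and clamp genes did not stand out. Pcna was at 101, 133 and 122 CPM with sham and 99.1, 106 and 86.3 CPM with traction, with a log2 fold change of -0.29 (95% interval -0.76 to 0.17). Rrm2, the regulated subunit of ribonucleotide reductase, was at 18.2, 31.4 and 23.3 CPM with sham and 32.3, 24.6 and 27.7 CPM with traction, a log2 fold change of 0.21. The ranges of both genes overlapped between the groups.

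Of the G1 to S regulators, Ccne1 (cyclin E1) was at 3.73, 6.82 and 5.62 CPM with sham and at 8.49, 6.65 and 11.6 CPM with traction. Mouse 2 with traction lay under mouse 2 with sham, so the groups overlapped. The log2 fold change of Ccne1 was 0.73 (95% interval 0.00 to 1.45, edgeR adjusted p = 0.16), and over the alternatives it ran from 0.30 to 0.95. E2f1, the factor that drives S-phase genes, had a log2 fold change of 0.52 (edgeR adjusted p = 0.16), whereas Ccne2 had -0.42, the lowest of the class.

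**Figure D3:**
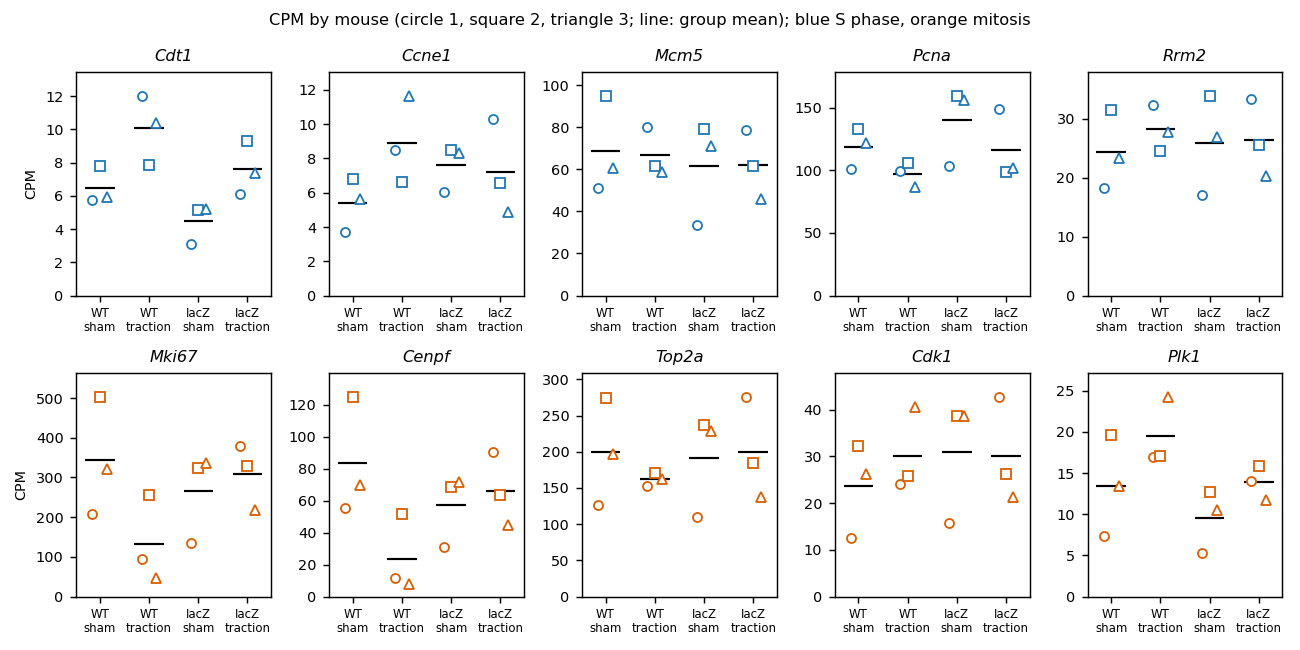
CPM of 5 S-phase members (top) and 5 mitotic members (bottom) in each mouse, with the group mean as a line and axes from 0. Mki67 and Cenpf are low in mice 1 and 3 of the WT traction group, at 93.6 and 45.7 CPM and at 11.8 and 7.56 CPM, whereas Top2a in the same mice is at 152 and 162 CPM.

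Among the mitotic members, 3 genes had the lowest log2 fold changes by a wide margin. Mki67 was at 208, 503 and 320.4 CPM in sham mice 1, 2 and 3 and at 93.6, 256 and 45.7 CPM with traction, a log2 fold change of -1.38 (95% interval -2.67 to -0.10, edgeR adjusted p = 0.13). Cenpf, a large coiled-coil protein of the outer kinetochore, was at 55.4, 125 and 69.8 CPM with sham and at 11.8, 51.7 and 7.56 CPM with traction, a log2 fold change of -1.81 (95% interval -3.26 to -0.37, edgeR adjusted p = 0.091). In both genes mice 1 and 3 with traction were far under every sham mouse, whereas mouse 2 was inside the sham range of Mki67 and just under that of Cenpf. Cenpe, the kinetochore motor, was at 32.3, 76.4 and 48.9 CPM with sham and at 8.28, 41.3 and 6.92 CPM with traction, a log2 fold change of -1.48 (95% interval -2.93 to -0.02, edgeR adjusted p = 0.15). Cenpe again was low in mice 1 and 3 and inside the sham range in mouse 2. None of the 3 passed the threshold, and the calls turn on 1 mouse. Without mouse 2 of the traction group all 3 passed, as did 14.7% of all genes against 9.15% with it, with log2 fold changes of -2.297 (Mki67, adjusted p = 0.024), -2.78 (Cenpe, 0.013) and -3.10 (Cenpf, 0.0097).

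The genes that work in the same steps had other values in the same mice. Top2a was at 127, 275 and 196 CPM with sham and at 152, 171 and 162 CPM with traction, a log2 fold change of -0.30 (95% interval -1.07 to 0.47). Cdk1 was at 12.6, 32.3 and 26.2 CPM with sham and at 24.0, 25.7 and 40.7 CPM with traction, a log2 fold change of 0.35. Its cyclin partner Ccnb1 was at 21.1, 47.4 and 35.1 CPM with sham and 34.3, 28.2 and 40.7 CPM with traction, a log2 fold change of -0.01. Mouse 3 with traction, which had the lowest Mki67 of all 12 libraries, thus had the highest Cdk1 and Ccnb1 of its group.

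The highest mitotic values were those of Foxm1, Plk1 and Aurkb, whereas other mitotic kinases lay lower, with 0.14 for Aurka, -0.05 for Bub1b and -0.19 for Bub1. Plk1, the polo-like kinase of mitotic entry and spindle assembly, was at 7.38, 19.6 and 13.4 CPM with sham and at 16.9, 17.1 and 24.3 CPM with traction, a log2 fold change of 0.53 (edgeR adjusted p = 0.35). Aurkb, the kinase of the chromosomal passenger complex, was at 5.19, 11.4 and 8.37 CPM with sham and 9.21, 9.52 and 14.2 CPM with traction, a log2 fold change of 0.40. Foxm1 was at 5.93, 17.2 and 11.3 CPM with sham and at 11.0, 12.5 and 30.7 CPM with traction, a log2 fold change of 0.65. The value of mouse 3 is the highest Foxm1 level of all 12 libraries, and the other traction mice lie inside the sham range. Without that mouse the log2 fold change of Foxm1 was 0.04, and over the alternatives it ran from 0.04 to 1.09. That of Plk1 ran from 0.23 to 0.92. Ttk, the kinase Mps1 of the spindle checkpoint, was at 22.6, 21.9 and 19.6 CPM with sham and at 13.0, 18.2 and 12.8 CPM with traction, without overlap, and had a log2 fold change of -0.54 (edgeR adjusted p = 0.18). With each library corrected for A content, Ttk had -0.11, the value nearest to 0 of a range that reached -0.72.

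**Figure D4:**
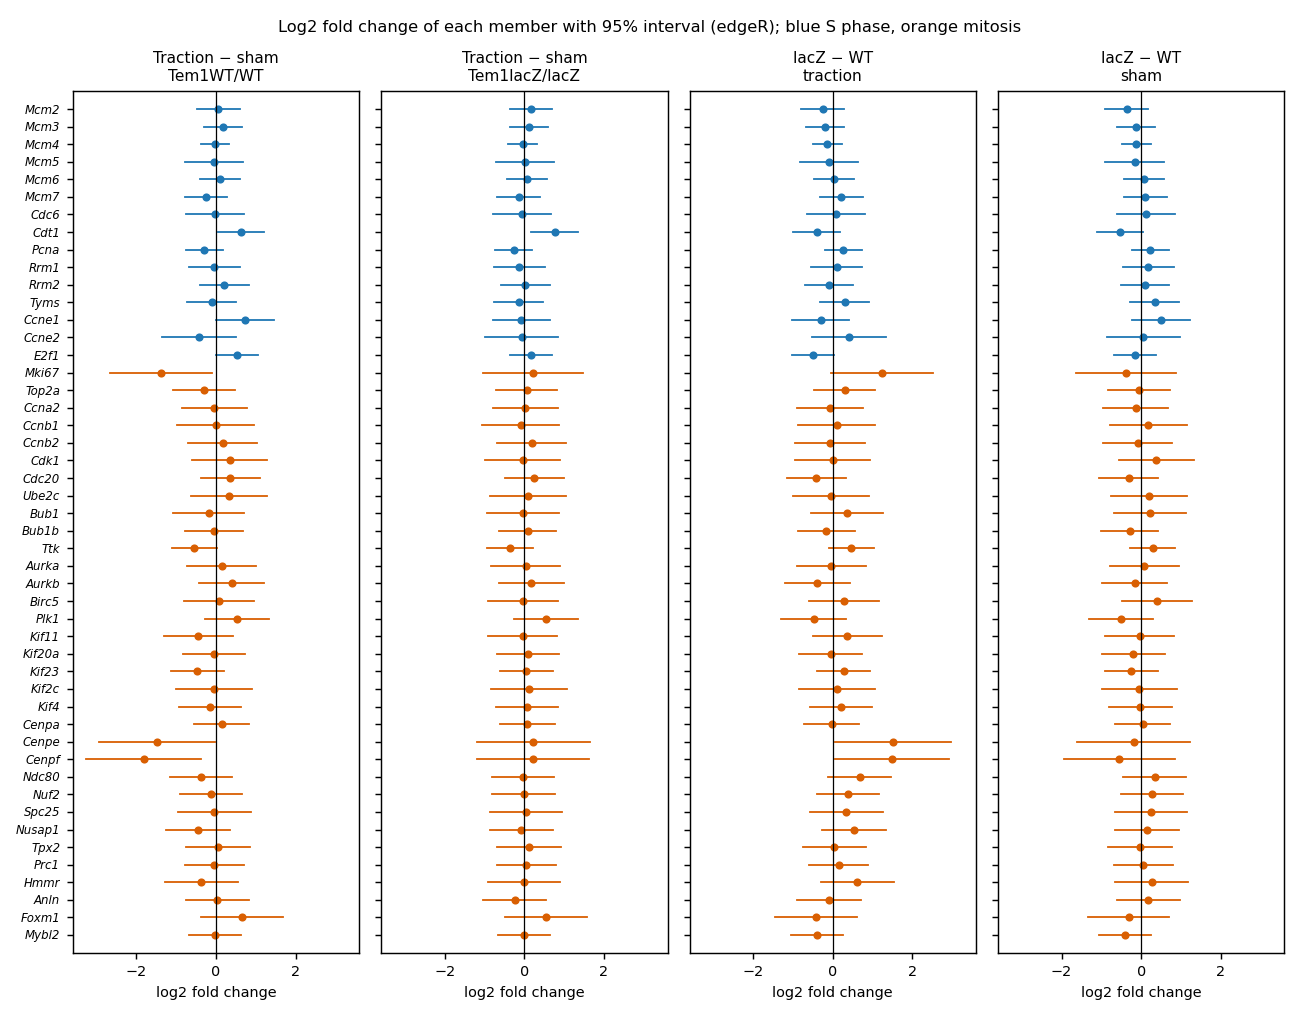
Log2 fold change of each member with its 95% interval from edgeR in the comparisons of traction with sham and of the genotypes, S-phase members in blue and mitotic members in orange. In the left panel the values run from -1.81 (Cenpf) to 0.73 (Ccne1), and in the second panel from -0.37 (Ttk) to 0.76 (Cdt1).

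A feature that the choice of members did not use ordered the log2 fold changes in Tem1WT/WT mice, namely the share of A in the transcript. The share was computed on 1 transcript per gene (GENCODE vM21, GRCm38). Mki67, Cenpe and Cenpf had 35.2%, 36.5% and 34.2% A, and were the only members at 34% or more, which 1.21% of the 15475 tested genes with a transcript reached. This limit was set after the values were seen. Just under it were Hmmr, a spindle protein, at 33.97% and Ndc80, of the kinetochore complex, at 33.85%, with log2 fold changes of -0.37 and -0.38. At the low end were E2f1 at 19.2%, Cdt1 at 20.65% and Plk1 at 22.56% A. The 60 bases in the middle of the coding sequence are printed for the 3 A-rich members and for Plk1, the mitotic member with the least A, with every A in capitals. They lie in exon 28 of 46 (Cenpe), 12 of 14 (Mki67), 12 of 18 (Cenpf) and 5 of 10 (Plk1), and hold 48.3% (Cenpe), 38.3% (Mki67), 38.3% (Cenpf) and 18.3% (Plk1) A.
Cenpe (chr3:135242480-135242539, plus strand): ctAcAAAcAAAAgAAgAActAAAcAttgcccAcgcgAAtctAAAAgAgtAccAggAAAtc
Mki67 (chr7:135698510-135698569, minus strand): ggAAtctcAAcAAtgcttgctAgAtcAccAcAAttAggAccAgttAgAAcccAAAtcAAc
Cenpf (chr1:189657110-189657169, minus strand): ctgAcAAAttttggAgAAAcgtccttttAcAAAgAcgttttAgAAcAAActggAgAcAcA
Plk1 (chr7:122164077-122164136, plus strand): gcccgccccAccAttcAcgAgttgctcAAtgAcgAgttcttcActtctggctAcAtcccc

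Across the 33 mitotic members, the Spearman correlation of A content with the log2 fold change of traction in Tem1WT/WT mice was -0.90, and across the 15 S-phase members it was -0.57. It was -0.51 and -0.36 for transcript length. In Tem1lacZ/lacZ mice the correlations with A content were -0.22 and -0.55. Over the 12899 genes with a transcript and a mean log2 CPM of 1 or more, they were -0.30 in Tem1WT/WT and -0.22 in Tem1lacZ/lacZ mice. Genes of the same libraries are not independent replicates, so these values are descriptions. By library, the correlation of A content with the deviation from the mean of the 12 libraries was -0.88 and -0.89 over the mitotic members in mice 1 and 3 of the Tem1WT/WT traction group and -0.04 in mouse 2. In the other 9 libraries it lay between -0.02 and 0.76.

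The same order was present over all genes of these libraries. The gene sets below include Mki67, Cenpe, Cenpf and some further mitotic genes, which were not removed. Among genes whose mean log2 CPM was 1 or higher, 138 had 34% A or more. Over these, the median deviation was -1.11, 0.02 and -1.79 in mice 1, 2 and 3 of the Tem1WT/WT traction group, and 0.11 to 0.56 in the other 9 libraries. Over the 6104 such genes under 25% A it was 0.15, 0.02 and 0.26. Of all 188 tested genes of 34% A or more, 174 had a negative log2 fold change of traction in Tem1WT/WT mice, with a median of -0.98. In Tem1lacZ/lacZ mice 138 of the 188 did, with a median of -0.17. What sets mice 1 and 3 apart in this respect was not tested.

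With each library corrected for the A content of its transcripts, a correction added after the data were examined, the log2 fold change of traction in Tem1WT/WT mice was -0.62 for Mki67, -0.53 for Cenpe and -1.28 for Cenpf (edgeR adjusted p = 0.33, 0.42 and 0.11). Mouse 2 alone, set against the 3 sham mice, gave -0.43, -0.35 and -0.69, which are values of 1 library, kept after it was seen not to be low, with no test. The correction for A content was fitted to these same libraries, so smaller differences of the A-rich members were built in and test nothing. A correction for GC content left -1.37, -1.39 and -1.74. Neither correction called a member, against 7.96% (A content) and 8.69% (GC content) of all genes.

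**Figure D5:**
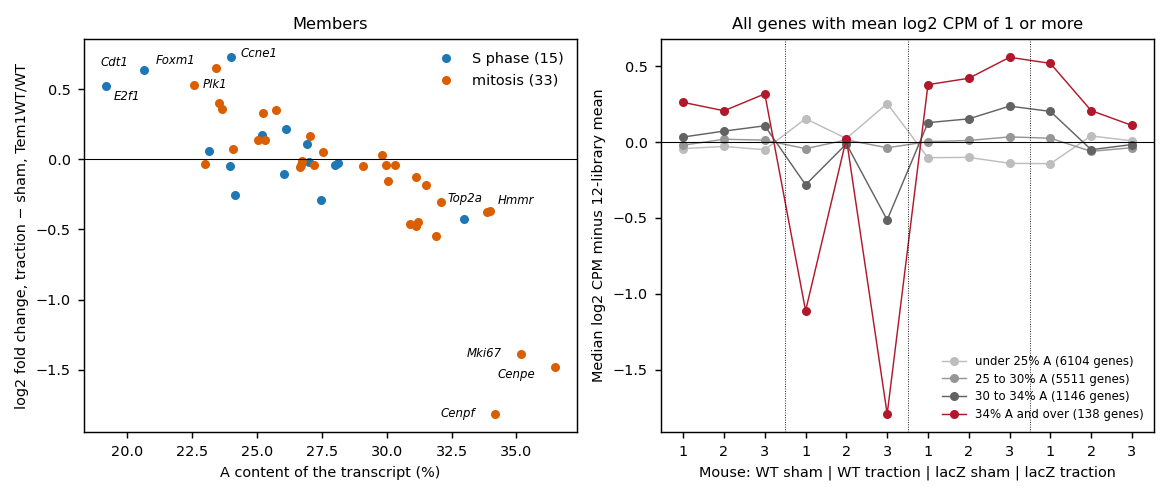
Left, log2 fold change of traction in Tem1WT/WT mice against the A content of the transcript for the 48 members. Right, median deviation of log2 CPM from the mean of the 12 libraries for all genes by A content, in each mouse. Genes of 34% A and over are at -1.11 and -1.79 in mice 1 and 3 of the WT traction group and at 0.02 in mouse 2.

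S-phase and mitotic genes were also set against each other within each library. The mean log2 CPM of the S-phase members exceeded that of the mitotic members by 0.27 ± 0.22 (SD, n = 3) in Tem1WT/WT sham, 0.51 ± 0.21 in Tem1WT/WT traction, 0.31 ± 0.23 in Tem1lacZ/lacZ sham and 0.24 ± 0.16 in Tem1lacZ/lacZ traction scars. The libraries ran from 0.11 to 0.52, 0.32 to 0.73, 0.16 to 0.57 and 0.06 to 0.37 in that order and overlapped between all groups. Without the 3 A-rich members the differences were 0.48, 0.55, 0.49 and 0.44. Within the sham groups the difference was largest in mouse 1 of each, the mouse with the lowest mitotic mean.

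With traction in Tem1lacZ/lacZ mice, 0 of 48 members passed the test of edgeR, as did 0% of all genes tested. At an unadjusted p under 0.05 there was 1 of 48 members, against 8.12% of all genes, and libraries did not overlap for 2 of 48, against 12.9%. DESeq2 and limma-voom called 0 members, against 0.122% and 2.31% of all genes. The median log2 fold change was -0.04 over the S-phase and 0.05 over the mitotic members, beside -0.01 over all genes. The 95% interval lay within a 2-fold difference for 14 of 15 S-phase and 23 of 33 mitotic members.

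Cdt1 was the member with the smallest p. It was at 3.12, 5.13 and 5.23 CPM in mice 1, 2 and 3 with sham and at 6.11, 9.32 and 7.35 CPM with traction, without overlap. Its log2 fold change was 0.76 (95% interval 0.17 to 1.35, edgeR adjusted p = 0.60). Foxm1 was at 5.31, 10.5 and 11.9 CPM with sham and 12.7, 15.5 and 12.3 CPM with traction, also without overlap, with a log2 fold change of 0.55 (95% interval -0.48 to 1.57). Cdt1 had the same sign of log2 fold change in both genotypes and passed the threshold in neither. A shared sign was not particular to it. In Tem1WT/WT and Tem1lacZ/lacZ mice Foxm1 had 0.65 and 0.55, Plk1 0.53 and 0.54, Ttk -0.54 and -0.37 and Pcna -0.29 and -0.26. Ccne1, at 0.73 and -0.08, changed sign.

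The A-rich members had no such pattern in Tem1lacZ/lacZ mice. Mki67 was at 135, 323 and 337 CPM with sham and at 379, 329.9 and 218 CPM with traction, a log2 fold change of 0.22 (95% interval -1.04 to 1.48). Cenpf was at 30.9, 68.7 and 71.6 CPM with sham and at 90.5, 63.6 and 44.7 CPM with traction, a log2 fold change of 0.22. Plk1 had 0.54, Aurkb 0.17, Top2a 0.06, Mcm2 0.17, Mcm5 0.02, Pcna -0.26 and Ccne1 -0.08. The remaining named members lay between -0.37 (Ttk) and 0.25 (Cdc20). They were Anln, a cytokinesis scaffold, at -0.25, Ccnb1 at -0.10, Cdk1 at -0.04, Cdc6 at -0.06, Rrm2 at 0.02, E2f1 at 0.18, Mcm7 at -0.14 and Tyms, the thymidylate synthase, at -0.15.

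With traction, the comparison of the genotypes uses the same Tem1WT/WT traction libraries as above. Tem1lacZ/lacZ against Tem1WT/WT mice gave 0 of 48 members called by edgeR, against 0.106% of all genes. At an unadjusted p under 0.05 there were 2 of 48 (26.1% of all genes), Cenpe and Cenpf. Libraries did not overlap for 4 of 48 (26.6%), namely Plk1, Cdc20, Mybl2 and Mcm2. DESeq2 and limma-voom called 0 members, against 12.2% and 0.0849% of all genes. The median log2 fold change was -0.10 over the S-phase and 0.12 over the mitotic members, beside 0.01 over all genes.

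The largest differences again were those of the A-rich members. Cenpe had a log2 fold change of 1.52 (95% interval 0.06 to 2.97, edgeR adjusted p = 0.18), Cenpf of 1.48 (0.05 to 2.91, adjusted p = 0.18) and Mki67 of 1.23 (-0.05 to 2.51, adjusted p = 0.21), all higher in Tem1lacZ/lacZ mice. Without mouse 2 of the Tem1WT/WT traction group all 3 passed the test (2.82, 2.77 and 2.15, adjusted p = 0.021, 0.021 and 0.043), as did 7.32% of all genes. With each library corrected for A content the values were 0.50, 0.92 and 0.44. Ndc80, at 0.68, had -0.20 after that correction. E2f1 had the lowest value, -0.50 (95% interval -1.03 to 0.03, edgeR adjusted p = 0.21). In the S-phase class Cdt1 had -0.41, Ccne1 -0.30, Mcm2 -0.26, Mcm5 -0.10, Rrm2 -0.10, Cdc6 0.07, Pcna 0.26, Tyms 0.30 and Ccne2 0.41. In the mitotic class Plk1 had -0.48, Foxm1 -0.42, Cdc20 -0.42, Aurkb -0.39, Mybl2 -0.38, Ccnb1 0.10 and Top2a 0.30. Cdk1 had nearly equal means, and the intervals of all these members include 0.

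In sham scars, Tem1lacZ/lacZ against Tem1WT/WT mice gave 0 of 48 members called by edgeR, against 0.0106% of all genes. At an unadjusted p under 0.05 there were 0 of 48 members, against 11.7%, and libraries did not overlap for 1 of 48, against 26.8%. DESeq2 and limma-voom called 0 members, against 0.143% and 0.0053% of all genes. The median log2 fold change was 0.07 over the S-phase and -0.03 over the mitotic members, beside -0.01 over all genes. The member without overlap was Cdt1, at 5.73, 7.81 and 5.95 CPM in Tem1WT/WT and 3.12, 5.13 and 5.23 CPM in Tem1lacZ/lacZ scars, with a log2 fold change of -0.53 (95% interval -1.12 to 0.05, edgeR adjusted p = 0.45). Of the other members, Cenpf had -0.55, Plk1 -0.50, Mki67 -0.37, Ccne1 0.50 and Cdk1 0.39, and the intervals of all 5 include 0. Mcm2 had -0.37, Mcm5 -0.17, E2f1 -0.15, Rrm2 0.09, Cdc6 0.12, Pcna 0.23 and Tyms 0.34. Mybl2 had -0.41, Foxm1 -0.32, Aurkb -0.16, Top2a -0.06, Ccnb1 0.18, Ndc80 0.34 and Birc5 (survivin, of the passenger complex) 0.39.

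Whether traction acted differently in the genotypes was tested as an interaction, and 0 of 48 members passed in edgeR, as did 0% of all genes. At an unadjusted p under 0.05 there was 1 of 48 (8.91% of all genes), Cenpf, with a log2 difference of 2.03 (95% interval 0.03 to 4.03, adjusted p = 0.55). Cenpe had 1.71 and Mki67 1.60, whereas Ccne1 had -0.80, and the intervals of these 3 include 0. Of the others, E2f1 had -0.35, Rrm2 -0.19, Cdc6 -0.05, Pcna 0.03, Mcm5 0.06, Mcm2 0.11, Mcm7 0.11, Cdt1 0.13 and Ccne2 0.35. Cdk1 had -0.39, Anln -0.28, Ube2c (a ubiquitin-conjugating enzyme of anaphase) -0.25, Aurkb -0.22, Foxm1 -0.11, Ccnb1 -0.09, Plk1 0.01 and Top2a 0.36. DESeq2 and limma-voom called 0 members, against 0.366% and 0% of all genes. With each library corrected for A content, Cenpf had 1.62, Cenpe 0.91 and Mki67 0.99.

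Other genes of the same pathways were counted too. Of 48 further replication genes (origin recognition, polymerases, repair factors), 54 further mitotic genes (condensins, kinesins, kinetochore and cohesin genes) and 25 G1 cyclins, Cdk inhibitors and E2F genes, 0, 0 and 1 were called with traction in Tem1WT/WT mice, with median log2 fold changes of -0.09, -0.05 and 0.19. In that comparison edgeR called 9.15% of all genes. In the other comparisons 0 of each list were called by edgeR, against at most 0.106% of all genes. At an unadjusted p under 0.05 there were 1, 3 and 4 genes of these lists in Tem1WT/WT mice (31.4% of all genes), 2, 1 and 1 in Tem1lacZ/lacZ mice (8.12%), 1, 6 and 6 between the genotypes with traction (26.1%), 3, 2 and 2 with sham (11.7%), and 0, 0 and 2 in the interaction (8.91%). DESeq2 called 0, 1 (Smc4) and 3 (Ccnd3, Cdkn2d, E2f4) in Tem1WT/WT mice, against 21.5% of all genes, 1 G1 gene (Ccnd3) between genotypes with traction, against 12.2%, and 0 elsewhere. Limma-voom called Ccnd3 in Tem1WT/WT mice, against 3.97% of all genes, and 0 elsewhere.

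The largest log2 fold changes of the replication list were those of Prim1 (-0.54) and Pola1 (-0.48), the primase and polymerase alpha subunits, and Brca1 (-0.44) with traction in Tem1WT/WT mice. In Tem1lacZ/lacZ mice they were Chaf1a (0.46), Lig1 (0.42) and Dnmt1 (0.40). Between genotypes they were Prim1 (0.80), Rpa3 (0.50) and Pola1 (0.49) with traction and Dnmt1 (-0.58), Rpa3 (0.55) and Lig1 (-0.48) with sham, and in the interaction Brca1 (0.65), Dtl (0.54) and Pola1 (0.47). None of these passed the test of edgeR.

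Of the G1 list, Cdkn2a (1.46) and Cdkn1c (0.96), both inhibitors of Cdk, had the largest values beside Ccnd3 in Tem1WT/WT mice. In Tem1lacZ/lacZ mice they were Cdkn1c (1.00), E2f8 (0.77) and E2f7 (0.48). Between genotypes they were E2f7 (-0.80), Cdkn1a (-0.78) and Ccnd3 (-0.70) with traction and Ccnd1 (-0.71), E2f2 (-0.66) and Cdkn2d (0.62) with sham. In the interaction they were Cdkn2a (-1.15), E2f2 (1.06) and Ccnd1 (0.92). Ccnd3 in Tem1WT/WT mice was the only call of edgeR among these. Single libraries weighed on some of the values. Cdkn2a was at 0.52, 5.03 and 6.16 CPM in mice 1, 2 and 3 of the Tem1WT/WT traction group. With sham Cdkn2a was at 0.999, 0.870 and 2.39 CPM, so mouse 1 with traction lay under every sham mouse. In mice 1, 2 and 3 of the Tem1WT/WT traction group, Cdkn1a was at 401, 123 and 138 CPM. Cdkn1c was at 30.8, 85.7 and 224 CPM in those mice and at 45.1, 60.8 and 69.1 CPM in Tem1WT/WT sham mice.

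The 1 call was Ccnd3 (cyclin D3, a partner of Cdk4 and Cdk6 in G1), which rose from 42.4, 46.0 and 51.6 CPM in sham mice 1, 2 and 3 to 85.4, 65.0 and 117 CPM with traction. Its log2 fold change was 0.93 (95% interval 0.51 to 1.36, edgeR adjusted p = 0.030). The call was lost in the fit to the 6 libraries compared alone (adjusted p = 0.088) and when 1 of 4 libraries was left out: mouse 1 (adjusted p = 0.12) or mouse 2 (0.091) of the Tem1WT/WT sham group, mouse 3 of the Tem1lacZ/lacZ sham group (0.051) and mouse 1 of the Tem1WT/WT traction group (0.051). With mouse 2 as the only traction library, the log2 fold change of Ccnd3 was 0.48. Its transcript has 19.4% A.

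With traction in Tem1WT/WT mice, the 3 largest values among the other mitotic genes were again in A-rich ones. Smc4, a condensin subunit with 36.2% A, was at 116, 171 and 135 CPM with sham and at 24.6, 108 and 13.7 CPM with traction in Tem1WT/WT mice, a log2 fold change of -1.53 (edgeR adjusted p = 0.11). Knl1 (listed as Casc5), the kinetochore scaffold, had -1.46 and 35.4% A, and Kif20b, a kinesin of cytokinesis, -1.43 and 36.7% A. In these 3 genes mice 1 and 3 with traction lay far under every sham mouse. Mouse 2 was inside the sham range for Knl1 and Kif20b and just under it for Smc4. Without mouse 2 all 3 passed the test of edgeR (-2.87, -2.58 and -2.67 for Smc4, Knl1 and Kif20b, adjusted p = 0.0042, 0.017 and 0.013), as did 14.7% of all genes. Lmnb1 (lamin B1) had a level of 381 CPM in mouse 1 with traction, the library with high neutrophil markers, and 60.5 and 69.1 CPM in mice 2 and 3. Its log2 fold change was 1.35 there, 0.45 in Tem1lacZ/lacZ mice, -1.63 between genotypes with traction and -0.73 with sham, with no call of edgeR. The part of neutrophils in that value was not tested. The other largest values of the mitotic list were Cit (0.80) and Incenp (0.49) in Tem1lacZ/lacZ mice, Kif20b (1.49) and Smc4 (1.46) between genotypes with traction, Oip5 (0.78) and Cks2 (0.64) with sham, and Kif20b (1.48), Knl1 (1.47) and Smc4 (1.37) in the interaction.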

How the data were processed

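The libraries were bulk RNA of 1 part of each scar from 12 mice, made with a stranded mRNA kit. Per the labels and the study's methods, reads were trimmed with fastp 0.20.0, aligned to GRCm38 with HISAT2 2.1.0 and counted with featureCounts 2.0.0. The authors deposited raw whole-number counts per gene and library. The gene annotation, strand setting and treatment of multi-mapping reads are not given in the sources used here, so reads of overlapping genes may be shared.

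Genes were filtered with filterByExpr, scaled by TMM and tested with robust quasi-likelihood in edgeR 4.0.16 (R 4.3.3), two-sided, in 1 model of the 4 groups with 8 residual degrees of freedom, with Benjamini-Hochberg adjustment over 18853 genes. Levels are TMM-scaled CPM and class means use log2 CPM with a prior count of 2. DESeq2 1.42.0 and limma 3.58.1 served as alternatives, with other filters and scalings, a replicate block, fits to the compared libraries alone and the omission of each library. The edgeR fit was run on simulated data with known changes. The simulated libraries varied less than these mice, so the run does not measure the power of the tests here.

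A and GC content came from the longest principal transcript of GENCODE vM21, present for 82.1% of tested genes and all 48 members. Promoter windows were the first RefSeq window of each gene (GRCm38.p6). Mcm4, Ccne2, Ccna2, Aurkb, Kif20a, Tpx2 and Foxm1 have no entry. The members, the lists of other genes and of markers and the tests were chosen with earlier results of these data known. Any member may be named. Named in each comparison are the members called, the 3 highest and 3 lowest log2 fold changes of each class, and always Mki67, Top2a, Ccnb1, Cdk1, Plk1, Aurkb, Foxm1, Mcm2, Mcm5, Pcna, Rrm2, Cdc6, Ccne1 and E2f1. Of each other list, the 3 largest absolute log2 fold changes are named, among genes averaging a log2 CPM of 0 or more. Genes without a transcript entry received no base composition correction. Corrections for base composition and the omission of a pair of libraries were added after the data were examined. Replicates are separate mice. Figures were drawn with matplotlib 3.10.9.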

Additional observations from a re-analysis of the deposited data

How the results depend on the processing

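The number of members called was 0 in every comparison under edgeR with the other filters, scalings, the fit that was not robust, the replicate block, the corrections for base composition, the fits to the compared libraries alone and limma-voom. With traction in Tem1WT/WT mice these settings called 3.54% to 10.5% of all genes, and 0% in the fit to the compared libraries alone. In the other comparisons they called at most 2.31% of all genes, so a count of 0 members there is near the share of all genes. DESeq2 called 1 mitotic member with traction in Tem1WT/WT mice, Cenpf, and 21.5% of all genes. Leaving out 1 library gave 0 to 3 mitotic members called in that comparison and 0 to 3 in Tem1lacZ/lacZ against Tem1WT/WT mice with traction, the 3 in both cases without mouse 2 of the Tem1WT/WT traction group. Without that mouse 14.7% and 7.32% of all genes were called in these 2 comparisons. The S-phase count was 0 throughout. The median log2 fold change of a class moved by less than the spread between mice under all of the alternatives, but with medians this close to 0 its sign was not stable: over the settings it ran from -0.30 to 0.28 for the mitotic members and from -0.13 to 0.28 for the S-phase members with traction in Tem1WT/WT mice. The mitotic extremes were those without mouse 1 and without mouse 2 of the Tem1WT/WT sham group. Upper quartile scaling moved the median of all genes from -0.01 to -0.12 in that comparison and from 0.01 to 0.14 between genotypes with traction.

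The difference between S phase and mitosis took other values with the median over members in place of the mean (1.19, 1.39, 0.71 and 0.97 in Tem1WT/WT sham, Tem1WT/WT traction, Tem1lacZ/lacZ sham and Tem1lacZ/lacZ traction scars), and 0.48, 0.55, 0.49 and 0.44 without the 3 A-rich members. Values under each alternative were kept one by one for 34 of the gene values only. Of these, Top2a with traction in Tem1WT/WT mice changed sign without mouse 2 of the sham group (leaving out 1 library gave -0.5504 to 0.01852) and when corrected for A content (0.20) or for A content and length (0.14). Ccne2 did so when corrected for A content (0.18), for A content and length (0.15) or GC content (0.29) and with mouse 2 as the only traction library (0.0342). Ndc80 between genotypes with traction did so when corrected for A content (-0.20) or for A content and length (-0.25). Over all 48 members, 29, 43, 29, 35 and 39 had a log2 fold change that took the other sign under at least 1 alternative (traction in Tem1WT/WT and Tem1lacZ/lacZ mice, genotype with traction and with sham, interaction), so the sign of a value near 0 is not stable. The cause was not tested.

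The replicate numbers come from the labels, which do not say whether same-numbered mice share a batch. Of 18 same-numbered pairs, 8 had a correlation of deviations over 0.1 (range -0.32 to 0.25). Pairs with different numbers ran from -0.40 to 0.37. On average, 9 of 12 libraries correlated best with their own number. Whether the numbers mark a batch was not tested. With the replicate block, 0 members were called. It called 7.78% of all genes with traction in Tem1WT/WT mice and at most 0.0796% in the other comparisons. Mki67 with traction in Tem1WT/WT mice then had a log2 fold change of -1.52. With 3 mice a group and a biological coefficient of variation of 34.2%, the 95% interval lay within a 2-fold difference for 25 of 48 members with traction in Tem1WT/WT mice and 37 of 48 in Tem1lacZ/lacZ mice.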
